A study of Mus musculus with 20 samples.

Results

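The genes of cholesterol synthesis and sterol control were followed in the livers of 20 mice, of which 5 stood in each of 4 groups set by genotype and diet. They comprise 26 named genes: the enzymes that build cholesterol from acetyl units, the proteins that sense sterols and switch those enzymes on or off, the sterol transfer protein Stard4, and the transporter pair Abcg5 and Abcg8 that exports sterol. Every probe set with a single gene symbol in the platform annotation that matched a named gene was taken. This gave 41 probe sets for 24 of the 26 genes, among 28898 probe sets for 17097 genes in all; Pmvk and Acat2 had no such probe set. The enzymes number 17, with 6 in the mevalonate arm (Hmgcs1, Mvk, Mvd, Idi1, Fdps, Ggps1) and 11 in the sterol arm (Fdft1, Sqle, Lss, Cyp51, Tm7sf2, Msmo1, Nsdhl, Hsd17b7, Ebp, Sc5d, Dhcr7). The members of each arm are textbook ones; the rule itself uses no measured value, but the genes were chosen with earlier results of these data known.

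The progeroid mice were Ercc1Δ/-, which carry a Δ and a null allele of the DNA repair gene Ercc1 throughout the body, and their wild type littermates were the controls. All were F1 hybrids of C57BL6J and FVB, 11 weeks old, kept on AIN93G synthetic pellets. Control animals ate freely, while restricted animals received 10% less from 7 weeks of age and 30% less from 9 weeks. Wild type mice ate 3.0 g per day, so that 30% restriction came to 2.1 g per day; the protocol also names 1.6 g per day for full restriction without a genotype. Food was put in just before the dark period, and the time of day at which livers were taken is not given in the sources used here. Each array held total RNA of 1 liver, so a lower level per cell and fewer cells of a type cannot be told apart.

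Cholesterol is made in the endoplasmic reticulum, and the liver is a main site. When sterols in that membrane are scarce, SCAP escorts the transcription factor SREBP2, the product of Srebf2, to the Golgi, where it is cut and released to switch on nearly every enzyme of the pathway; when sterols are plentiful, the INSIG proteins hold SCAP back. Surplus sterol instead activates LXR, which switches on Abcg5 and Abcg8, whose joined product pumps cholesterol and plant sterols into bile.

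Promoter letters show what the members have in common in sequence. RefSeq promoters (assembly GRCm38.p6, 250 bases before to 50 after a start site) were found for 22 of the 26 genes, in 29 windows; Fdps, Fdft1, Sqle and Stard4 are not in the table. The 4 windows below are shown because they hold the sterol regulatory element match of Hmgcs1, the enzyme that rose most under restriction (Lss), an enzyme window with several CCAAT boxes (Nsdhl) and the stretch shared by both exporters. Capitals mark the sterol regulatory element form TCACNCCAC and CCAAT boxes on either strand (CCAAT or ATTGG). The windows lie on the plus strand at chr13:119690101-119690400 (Hmgcs1), chr10:76531355-76531654 (Lss), chrX:72918271-72918570 (Nsdhl) and chr17:84682871-84683170 (Abcg8).
Hmgcs1: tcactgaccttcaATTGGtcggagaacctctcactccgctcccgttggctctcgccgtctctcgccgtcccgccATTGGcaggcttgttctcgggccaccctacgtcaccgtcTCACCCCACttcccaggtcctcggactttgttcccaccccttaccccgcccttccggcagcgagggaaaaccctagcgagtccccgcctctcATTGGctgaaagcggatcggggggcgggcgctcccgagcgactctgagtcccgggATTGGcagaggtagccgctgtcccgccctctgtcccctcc
Lss: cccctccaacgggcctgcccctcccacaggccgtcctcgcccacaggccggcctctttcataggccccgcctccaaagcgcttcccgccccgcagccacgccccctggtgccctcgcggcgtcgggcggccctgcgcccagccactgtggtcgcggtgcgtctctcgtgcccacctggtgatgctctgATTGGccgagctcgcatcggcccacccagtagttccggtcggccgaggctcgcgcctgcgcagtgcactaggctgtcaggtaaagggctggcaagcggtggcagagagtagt
Nsdhl: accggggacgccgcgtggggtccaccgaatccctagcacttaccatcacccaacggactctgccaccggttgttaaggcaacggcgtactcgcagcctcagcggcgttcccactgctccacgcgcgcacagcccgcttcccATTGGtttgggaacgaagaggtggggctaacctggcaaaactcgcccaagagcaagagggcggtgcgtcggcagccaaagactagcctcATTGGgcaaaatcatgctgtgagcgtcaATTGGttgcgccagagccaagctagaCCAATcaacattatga
Abcg8: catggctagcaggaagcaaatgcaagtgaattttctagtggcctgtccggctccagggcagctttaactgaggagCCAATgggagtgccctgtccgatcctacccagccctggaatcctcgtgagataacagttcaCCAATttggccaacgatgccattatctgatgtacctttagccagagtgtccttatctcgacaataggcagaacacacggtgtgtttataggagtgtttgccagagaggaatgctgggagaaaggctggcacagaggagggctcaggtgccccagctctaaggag
The Hmgcs1 window holds the element TCACCCCAC, with its first base 137 bases before the start site, and 4 CCAAT boxes. The Nsdhl window holds 4 CCAAT boxes, the Abcg8 window shown 2 and the Lss window 1. Abcg5 and Abcg8 are read in opposite directions from start sites 110 bases apart, so the Abcg8 window shown also contains the start site of Abcg5. A second Abcg8 start site lies 6709 bases from that of Abcg5. Its window does not overlap the Abcg5 window and holds 0 CCAAT boxes.

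Over both strands, TCACCCCAC stood in 1 of the 29 windows (3.45%), against 0.551% of all 32851 windows in the table, and the looser TCACNCCAC, which includes it, in the same window (3.45% against 1.24%). CCAAT, the letters bound by the SREBP partner NF-Y, stood in 20 of 29 windows (69%), against 37.4% of all windows, and in 20 of the 22 genes. The share of all is counted per window, so it stands beside the 69% and not beside the genes. The Abcg5 match lies in the stretch shared with Abcg8 and is counted for both. The E-box CACGTG stood in 6 windows (20.7%), of Dhcr7, Hsd17b7, Insig1, Sc5d and Scap, against 7.15% of all. Both Scap windows overlap and hold the same match, which is thus counted in each. A match describes these letters and is no measure of binding. Only these spellings were searched, so a window without a match may still hold another form of the sterol regulatory element.

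Levels are the authors' RMA values on the log2 scale, so a difference of 1 is a 2-fold change, and values of different probe sets are not set against each other. A gene with several probe sets is represented by the one with the highest mean. A gene is said to rise or fall at a Benjamini-Hochberg adjusted p under 0.05 over 17097 genes in limma's moderated test; errors of levels are SD (n = 5 per group) and errors of differences are SE. Ercc1, the targeted gene, was lower in progeroid mice by a log2 difference of -1.24 ± 0.10 on the control diet (limma, adjusted p = 8.73e-08) and of -1.35 ± 0.10 on the restricted diet (adjusted p = 1.50e-08), with no overlap between groups; whether the probes overlap the Δ change was not tested. All 10 hepatocyte markers were high, with a mean level per animal between 12.95 and 13.21. Array pairs correlated between 0.979 and 0.997 across the 17097 genes, and 0 pairs were identical.

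Of the 24 genes, 6 passed the test in at least 1 of 5 comparisons, with 8 calls in total. The share of all genes that passed in at least 1 comparison was not counted. Of all genes, 9.92% rose and 12.6% fell with restriction in wild type mice, and 6.94% and 5.07% in progeroid mice. In progeroid against wild type mice, 11.8% were higher and 5.44% lower under restriction, and 6.7% and 4.32% on the control diet. The difference of diet effects called 1.03% higher and 0.374% lower. Restriction raised 2 genes in wild type mice, Lss and Fdft1, and 2 others in progeroid mice, Abcg5 and Abcg8. Between genotypes on the restricted diet, Abcg5 and Abcg8 were higher and Fdps was lower in progeroid mice. On the control diet, Scap alone was called, and it was lower in progeroid mice.

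In wild type mice, 15 of the 17 enzymes had a higher mean on the restricted diet, with a median log2 difference of 0.61 against -0.03 over all genes, but only Lss and Fdft1 passed the test. Among all 17097 genes, 9.92% rose and 12.6% fell in this comparison, so 2 of 24 members rising is near the background, and 0 fell. At an unadjusted p under 0.05, 5 members were higher and 3 lower, where 14.2% and 18.8% of all genes were. In progeroid mice, 14 of the 17 enzymes had a lower mean on the restricted diet, with a median of -0.26 against -0.01 over all genes, and 0 passed (in limma at an unadjusted p under 0.05, Lss was higher and Sc5d lower, where 13.3% and 12% of all genes were). The 2 members that rose there were both exporters, and 6.94% of all genes rose and 5.07% fell. The difference between both diet effects was negative for 16 of 17 enzymes, with a median of -0.70 against 0.02 over all genes, and 0 of 24 members passed its test (1.03% of all genes were called higher and 0.374% lower). At an unadjusted p under 0.05, 2 members were higher and 2 lower, near the 9.12% and 5.09% of all genes at that threshold. A difference between the diet effects was thus not shown for any single enzyme.

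**Figure D1:**
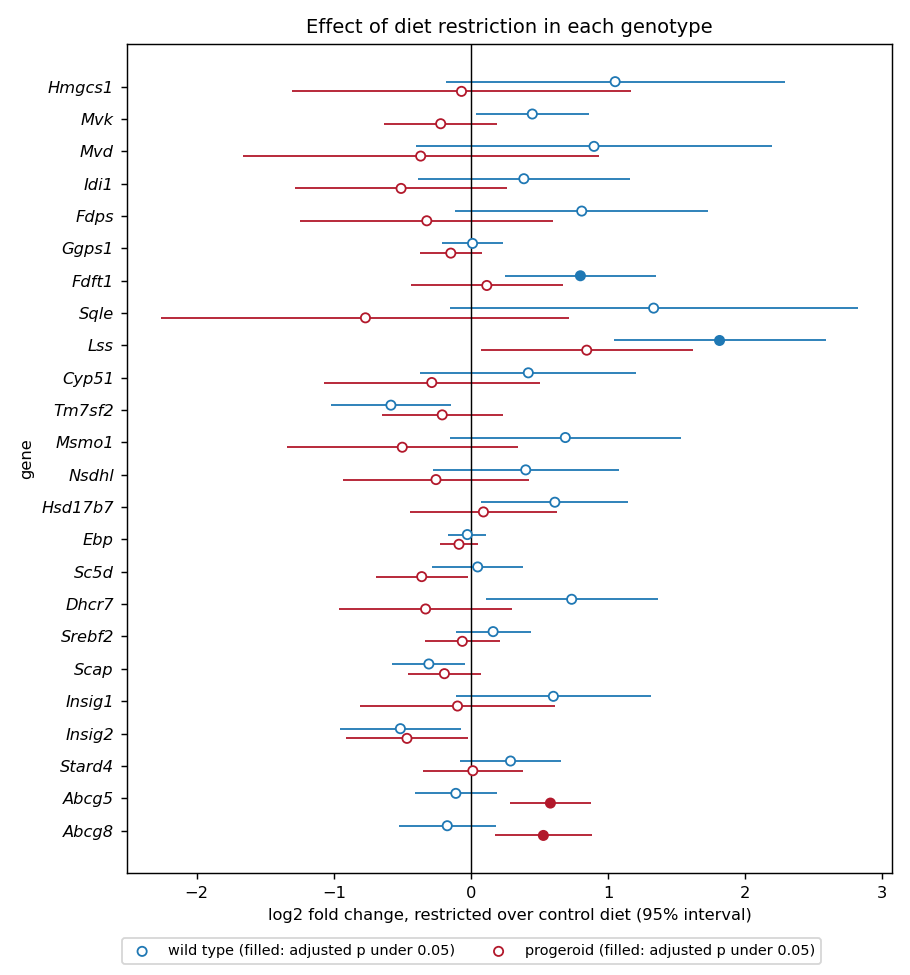
Log2 fold change of restricted over control diet for each of the 24 genes (rows), in wild type (blue) and progeroid mice (red), with 95% intervals of the limma fit; filled points passed an adjusted p of 0.05. Lss (1.81) and Fdft1 (0.80) are filled in wild type, Abcg5 (0.58) and Abcg8 (0.53) in progeroid mice, and most other intervals of the enzymes include 0.

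Lss, lanosterol synthase, folds oxidosqualene into the first sterol ring system. Its levels were 6.36, 5.69, 6.80, 6.06 and 7.36 in the wild type controls (6.45 ± 0.65) and 8.11, 8.58, 8.35, 8.09 and 8.19 in the restricted wild type mice (8.27 ± 0.20). All 5 restricted animals lay above all 5 controls, as they did for 6.9% of all genes. The log2 difference was 1.81 ± 0.37, a 3.51-fold rise (limma, adjusted p = 0.00128), and the call held under each of 7 alternative ways of processing and without each animal in turn (adjusted p up to 0.0051). In progeroid mice the levels were 7.61, 7.08, 5.93, 5.95 and 7.06 on the control diet and 8.75, 7.78, 6.93, 6.64 and 7.76 on the restricted diet. These groups overlapped, and the difference of 0.84 ± 0.37 did not pass (limma, adjusted p = 0.15). The difference between the diet effects was -0.97 (95% interval -2.06 to 0.12; adjusted p = 0.42).

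Fdft1, squalene synthase, commits farnesyl units to sterols. It stood at 9.51, 9.43, 10.33, 9.31 and 10.56 in the wild type controls and at 10.76, 10.91, 10.48, 10.39 and 10.58 under restriction. Control 405 reached into the range of the restricted animals, while the other 4 lay below it. The rise was 0.80 ± 0.27, or 1.74-fold (limma, adjusted p = 0.035). It was lost with a variance trend and robust fit, with the Gapdh 3' minus 5' signal (higher where RNA is more degraded) as covariate, and without any one of animals 401, 402, 404, 421, 422 and 425, where adjusted p reached 0.098. In progeroid mice Fdft1 was 10.59, 10.66, 9.87, 9.56 and 10.36 on the control diet and 11.09, 10.40, 9.86, 9.83 and 10.43 under restriction, a difference of 0.12 ± 0.27 (limma, adjusted p = 0.84).

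**Figure D2:**
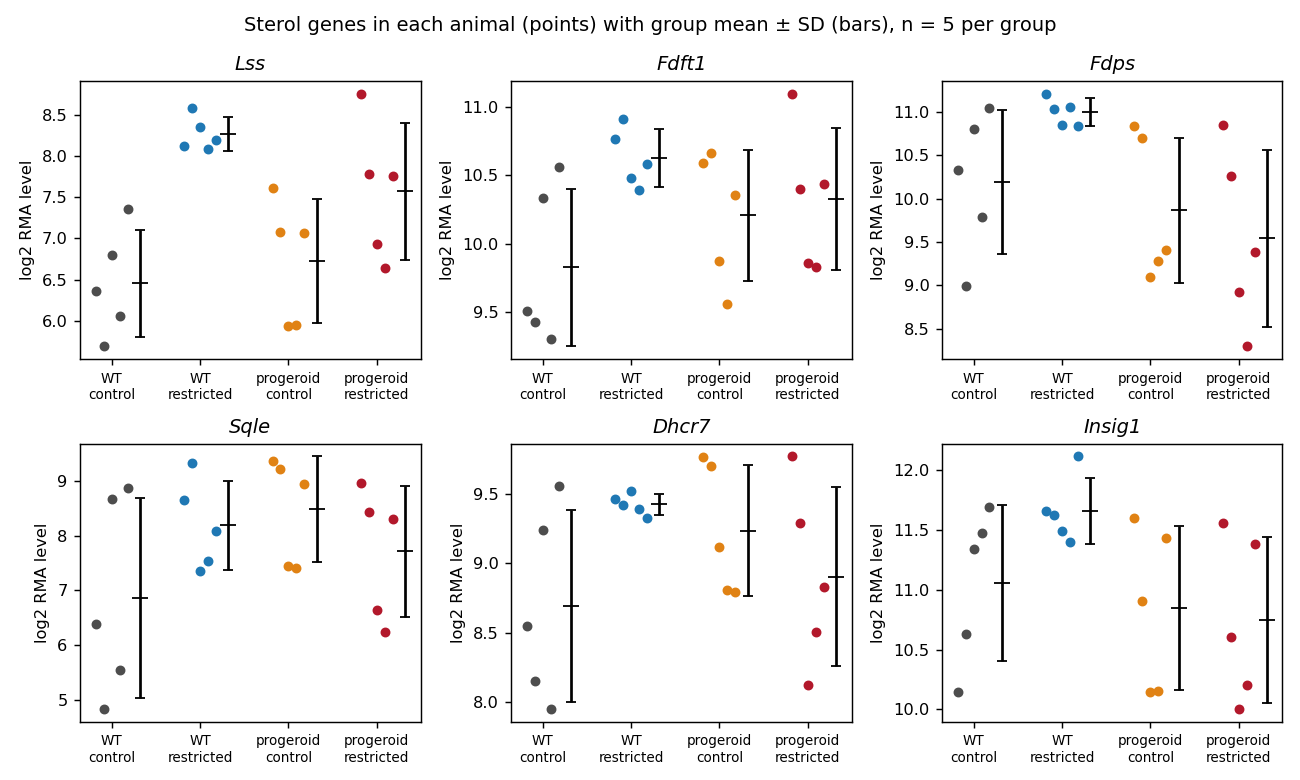
Log2 RMA level (vertical axis) of Lss, Fdft1, Fdps, Sqle, Dhcr7 and Insig1 in each animal (points), by group, with the group mean and SD (bars, n = 5). The restricted wild type animals sit close together for Lss (8.09 to 8.58), Fdps (10.84 to 11.21) and Dhcr7 (9.33 to 9.52), whereas the other groups are spread out, with Sqle between 4.83 and 8.88 in the wild type controls.

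Fdps makes farnesyl diphosphate, the branch point from which sterols and isoprenoids arise. Its levels were 11.21, 11.04, 10.86, 11.06 and 10.84 in restricted wild type mice and 10.85, 10.26, 8.92, 8.30 and 9.39 in restricted progeroid mice. Progeroid animal 362 reached the wild type range and the other 4 lay below it. The difference was -1.46 ± 0.44, or 2.75-fold lower (limma, adjusted p = 0.026). The call was lost with the trend and robust fit and without any one of animals 366, 368, 369 and 424, with adjusted p up to 0.0902. On the control diet Fdps was 10.33, 8.99, 10.81, 9.79 and 11.05 in wild type and 10.84, 10.70, 9.10, 9.28 and 9.41 in progeroid mice, a difference of -0.33 ± 0.44 (limma, adjusted p = 0.71).

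Fdps was the only enzyme to pass between genotypes on the restricted diet, although 16 of 17 enzymes had a lower mean in progeroid mice there (median -0.42 against -0.003 over all genes). Among all genes, 11.8% were higher and 5.44% lower in this comparison, against 2 and 1 of the 24 members. At an unadjusted p under 0.05, 2 members were higher and 5 lower, where 18% and 11.6% of all genes were. Sc5d, a sterol desaturase, differed by -0.41 ± 0.16 (limma, adjusted p = 0.085). Mvd, the decarboxylase that yields isopentenyl diphosphate, differed by -1.27 ± 0.62 (adjusted p = 0.18), and Tm7sf2, a sterol reductase, was the exception in sign at 0.28 ± 0.21 (adjusted p = 0.42). On the control diet, 11 enzymes had a higher and 6 a lower mean in progeroid mice (median 0.26 against -0.01), and 0 passed in limma, where Sqle alone had an unadjusted p under 0.05. With each animal left out in turn, that median ranged from 0.008 (without progeroid control 321) to 0.40 (without wild type control 405). Of all genes, 6.7% were higher and 4.32% lower there, against 0 and 1 of the 24 members.

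Sqle, squalene epoxidase, a slow step of the sterol arm, had the widest spread and is given in full for that reason, after its values were seen. Wild type controls read 6.38, 4.83, 8.66, 5.55 and 8.88 and restricted wild type mice 8.65, 9.33, 7.36, 7.54 and 8.08. Progeroid mice read 9.37, 9.23, 7.45, 7.41 and 8.95 on the control diet and 8.97, 8.43, 6.63, 6.23 and 8.30 under restriction. Within 3 of the groups, the animals fell into high and low ones with a gap between them. The genotype difference on the control diet was 1.62 ± 0.71 (limma, adjusted p = 0.16), the diet effect 1.33 ± 0.71 in wild type (adjusted p = 0.20) and -0.77 ± 0.71 in progeroid mice (adjusted p = 0.55), and the difference between diet effects -2.10 ± 1.01 (adjusted p = 0.35).

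The other enzymes did not pass in any comparison. In wild type mice under restriction, Mvk, mevalonate kinase, differed by 0.45 ± 0.20 (limma, adjusted p = 0.12), Dhcr7, which performs a last reduction to cholesterol, by 0.73 ± 0.30 (adjusted p = 0.088) and Hsd17b7, a ketosteroid reductase, by 0.61 ± 0.26 (adjusted p = 0.096). Tm7sf2 went the other way at -0.58 ± 0.21 (adjusted p = 0.052), and passed as lower without dim genes and without any one of animals 323, 402, 404, 421 and 422 (limma, adjusted p from 0.018 to 0.048). Without control animal 405, Dhcr7 (0.95) and Hsd17b7 (0.80) passed as well, which brought the rising members to 4. Without that animal, 1604 of all 17097 genes rose. Hmgcs1, which makes the precursor of mevalonate, was measured by a single dim probe set with a mean of 4.49, where RMA understates folds; its diet effect in wild type was 1.05 ± 0.59 (adjusted p = 0.23). Ebp, a sterol isomerase, and Ggps1, which leads to geranylgeranyl groups and away from sterols, differed least among the enzymes: their values lay between -0.11 and -0.03 and between -0.16 and 0.03 over the 5 comparisons.

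As a group, the 24 members varied between animals far more than most genes did. The median SD within groups over the 24 members was 0.46, against 0.14 over all genes and 0.16 over the 8878 genes with a mean of at least 5. The pooled SD of Sqle (1.27) exceeded that of 99.98% of genes, that of Mvd (1.10) 99.94% and that of Fdps (0.78) 99.65%. Ebp (0.10) exceeded 11.4% and Ggps1 (0.18) 70.0%.

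The enzymes also moved together from animal to animal. Progeroid restricted animal 362 had the highest level of its group for 14 of 17 enzymes and animal 368 the lowest for 14. Among wild type controls, animal 405 was highest for 13 and animal 402 lowest for 11, and among restricted wild type mice animal 422 was highest for 12. In the progeroid controls, animals 321 and 323 shared the top (8 and 7 enzymes), and animals 326 and 325 the bottom (8 and 7). The 17 values of an animal come from 1 RNA sample on 1 array, so they are not independent.

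**Figure D3:**
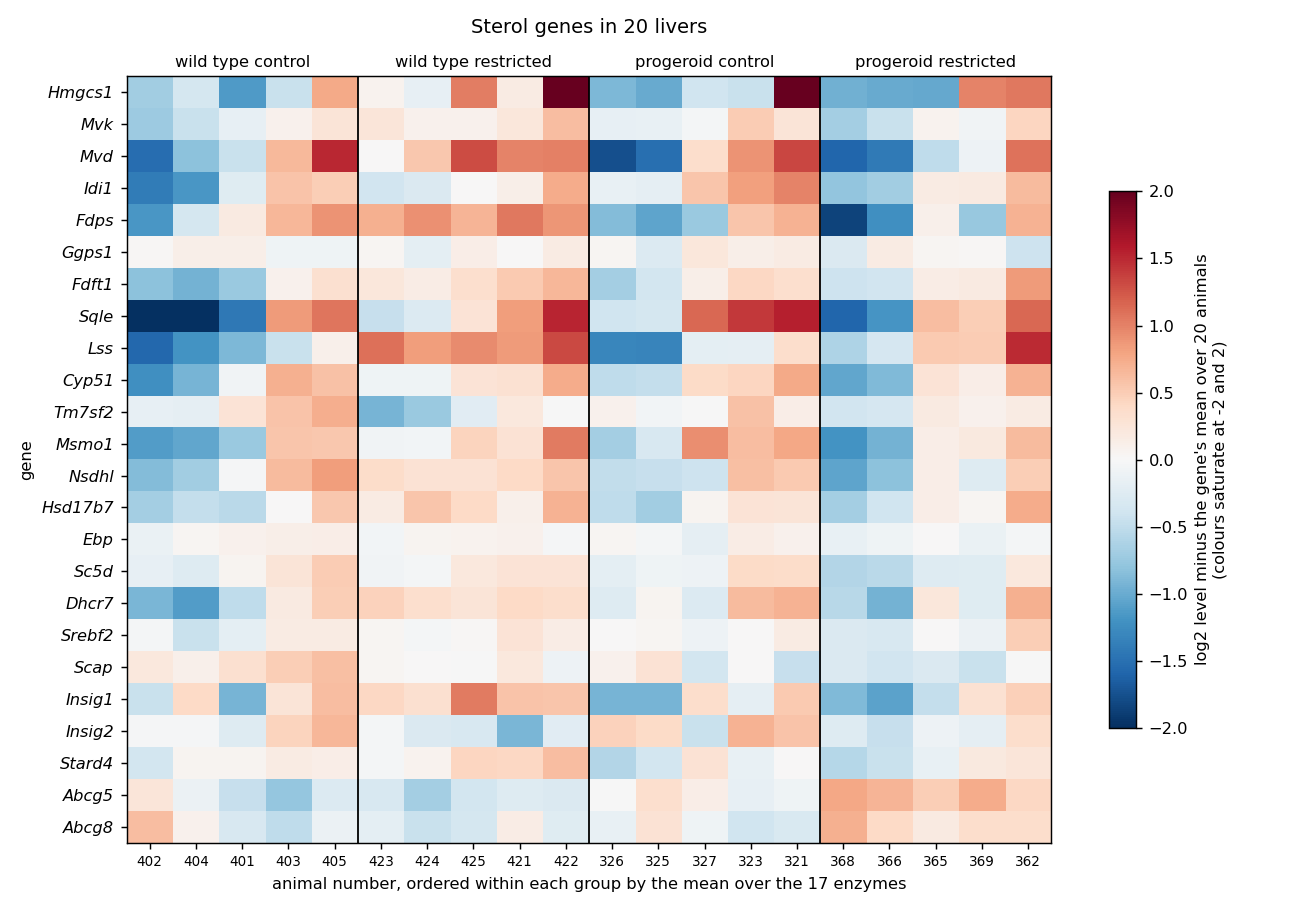
Level of each of the 24 genes (rows) in each of the 20 animals (columns, by number) as the log2 difference from the gene's mean over all animals; red is higher, blue is lower, and columns are ordered within a group by the mean of the 17 enzymes. Most enzyme rows change colour together from left to right within a group, whereas Ggps1, Abcg5 and Abcg8 do not follow them; Ebp and Scap vary little but rise with the enzymes among the wild type controls, Ebp from 11.44 to 11.71.

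Summed up as the mean of the 17 enzymes per animal, wild type controls stood at 8.57, 7.99, 9.23, 8.23 and 9.51 (8.71 ± 0.65) and progeroid controls at 9.61, 9.40, 8.45, 8.43 and 9.02 (8.98 ± 0.54). Restricted progeroid mice stood at 9.56, 9.00, 8.26, 8.09 and 9.00 (8.78 ± 0.60) and restricted wild type mice at 9.34, 9.69, 9.02, 9.05 and 9.32 (9.28 ± 0.27). The groups overlapped, and restricted wild type mice ranged from 9.02 to 9.69, whereas each other group had at least 2 below 8.5. Both arms showed this: the mean of the mevalonate arm ranged over 0.84 in restricted wild type mice and over 1.55 to 1.63 in the other groups, and that of the sterol arm over 0.59 against 0.98 or more.

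The SD was smallest in the restricted wild type group for 14 of 17 enzymes (82.4%), a group that had the smallest SD for 23.1% of all genes and 19.9% of genes with a mean of at least 5. The enzymes moved together in the same 5 animals per group, so these 14 are not independent observations, and the share was not tested. The median SD of the enzymes was 0.21 there, 0.69 in wild type controls, 0.54 in progeroid controls and 0.64 in restricted progeroid mice; over all genes the medians lay between 0.13 and 0.14 in every group. Dhcr7 had an SD of 0.07 in restricted wild type mice and 0.69 in the controls, Nsdhl, which removes methyl groups from the sterol ring, 0.11 and 0.76, Fdps 0.16 and 0.83, and Lss 0.20 and 0.65. Hmgcs1 and Ggps1 had their smallest SD in the wild type controls and Tm7sf2 in the progeroid controls. The model assumes 1 spread for all groups, whereas the SDs of most of these enzymes differed between groups as given. Whether their spread is unequal beyond what 5 animals per group can give was not tested. Fitted on both groups of a comparison alone, the members lower in restricted progeroid mice rose from 1 to 3 (Insig1 and Scap joined Fdps), and Scap fell out on the control diet. Of all genes, 4.96% were lower under restriction and 3.49% on the control diet in these fits.

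**Figure D4:**
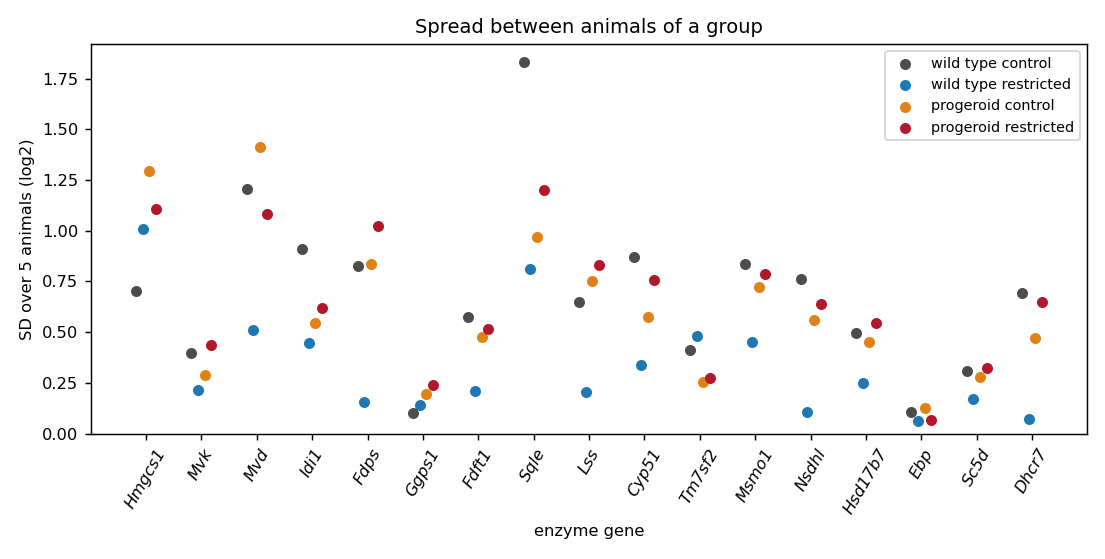
SD of the log2 level over 5 animals (vertical axis) for each of the 17 enzymes, with 1 point per group. The restricted wild type point is lowest for 14 enzymes, such as Dhcr7 (0.07) and Nsdhl (0.11); Hmgcs1, Ggps1 and Tm7sf2 are the exceptions.

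Among the sterol sensors, Scap was called lower in progeroid mice on the control diet. Its levels were 10.26, 10.16, 10.44, 10.05 and 10.55 in wild type controls and 9.49, 9.96, 10.24, 10.04 and 9.59 in progeroid controls, where 4 of 5 lay below every wild type animal. The log2 difference was -0.43 ± 0.13, or 1.35-fold lower (limma, adjusted p = 0.032). The call was lost with the Gapdh covariate, with only both groups in the fit and without any one of animals 321, 327, 401, 403 and 405, with adjusted p up to 0.18; the difference itself stayed between -0.53 and -0.34 over the 7 alternatives and without each animal in turn. That Gapdh difference was 0.93 ± 0.28 in progeroid and 0.66 ± 0.06 in wild type controls. On the restricted diet Scap read 9.95, 9.65, 9.56, 9.67 and 9.50 in progeroid and 10.17, 9.85, 10.00, 9.97 and 9.94 in wild type mice, a difference of -0.32 ± 0.13 (limma, adjusted p = 0.096).

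Insig1, an SREBP2 target that in turn restrains SCAP, varied like the enzymes. It read 10.14, 10.63, 11.34, 11.48 and 11.70 in wild type controls and 11.66, 11.63, 11.49, 11.40 and 12.12 in restricted wild type mice. Progeroid mice read 11.60, 10.91, 10.14, 10.15 and 11.44 on the control diet and 11.56, 10.60, 10.00, 10.20 and 11.39 under restriction. As with the enzymes, the restricted wild type animals had the highest mean and a small SD (0.28, against 0.65 to 0.70 in the other groups). The genotype difference on the restricted diet was -0.91 ± 0.34 (limma, adjusted p = 0.075), and it passed without progeroid animal 362 (-1.11, adjusted p = 0.030), as did Sc5d, Scap and Stard4, which with Fdps made 5 members lower.

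Insig2, the INSIG form that SREBP2 does not drive, read 11.34, 11.58, 12.05, 11.58 and 12.27 in wild type controls and 10.69, 11.38, 11.57, 11.32 and 11.29 in restricted wild type mice. It read 12.18, 12.30, 11.98, 12.08 and 11.16 in progeroid controls and 11.96, 11.50, 11.14, 11.34 and 11.43 in restricted progeroid mice. Its means were lower under restriction in both genotypes, by -0.51 ± 0.21 in wild type (limma, adjusted p = 0.091) and -0.47 ± 0.21 in progeroid mice (adjusted p = 0.17). Neither passed with the probe set of the highest mean. A second of its 3 probe sets was called in wild type mice, at -0.84 ± 0.21 (limma over all probe sets, adjusted p = 0.0063), with no overlap between groups.

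Srebf2 itself, whose product is activated by cutting, so that its mRNA is a limited guide to it, read 6.43, 6.57, 6.78, 6.17 and 6.78 in wild type controls and 6.90, 6.77, 6.66, 6.58 and 6.64 under restriction. Progeroid mice read 6.78, 6.62, 6.66, 6.62 and 6.52 and, under restriction, 7.11, 6.63, 6.30, 6.33 and 6.51. The groups overlapped in every comparison and none passed; the largest difference between groups was 0.16 ± 0.13, for diet in wild type (limma, adjusted p = 0.43). Its second probe set disagreed, with a difference of 1.13 ± 0.25 in that comparison (limma over all probe sets, adjusted p = 0.0027) and no overlap, and with the mean of both probe sets Srebf2 passed as higher (0.65; limma, adjusted p = 0.013).

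Probe sets of a gene differed elsewhere too. Of the 11 members with more than 1, Sc5d had a probe set that fell in restricted progeroid mice by 1.53 on the log2 scale (limma over all probe sets, adjusted p = 0.0087), where the brightest one differed by -0.36. The dimmest Sc5d probe set also had a lower mean there, at 5.36 against 6.57 in progeroid controls. In wild type mice both dimmer probe sets had lower means under restriction (9.68 against 10.45 and 6.03 against 6.29). The brightest stood at 12.21 against 12.16, so the sign of Sc5d in wild type depends on the probe set. With the mean of all probe sets, 14 of 17 enzymes had a higher mean in restricted wild type mice. Stard4 had one that was lower in progeroid controls, at -0.91 ± 0.25 (adjusted p = 0.022), where the other 2 differed by -0.17 and -0.16. A dim Hsd17b7 probe set was lower in restricted progeroid mice, at -0.26 ± 0.09 (adjusted p = 0.048), where the brightest differed by -0.42 without passing. Over all 28898 probe sets, 3.97% and 5.03% were lower between genotypes on the control and restricted diets, 4.23% fell with restriction in progeroid mice, and 9.87% rose and 11.1% fell in wild type.

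Stard4, which carries sterol between membranes, did not pass in any comparison; its means lay at 9.94 ± 0.22 and 10.23 ± 0.27 in wild type and at 9.78 ± 0.34 and 9.79 ± 0.37 in progeroid mice, control diet first. The largest difference was that between genotypes under restriction, at -0.44 ± 0.18 (limma, adjusted p = 0.093).

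The exporters were the members called in 2 comparisons each. Abcg5 read 11.53, 11.60, 11.80, 11.88 and 11.85 in restricted progeroid mice and 11.02, 10.95, 11.45, 11.10 and 11.25 in progeroid controls. It read 10.85, 10.82, 10.79, 10.43 and 10.74 in restricted wild type mice and 10.66, 11.36, 10.34, 10.99 and 10.84 in wild type controls. The restricted progeroid animals lay above all 15 others. Against restricted wild type mice the difference was 1.01 ± 0.14, or 2.01-fold (limma, adjusted p = 5.63e-05), and against progeroid controls 0.58 ± 0.14, or 1.49-fold (adjusted p = 0.011). Groups did not overlap upward in 7.95% and 5.19% of all genes in these comparisons. Both calls held under all 7 alternatives and without each animal in turn (adjusted p up to 0.000299 and 0.0358).

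In wild type mice restriction gave an Abcg5 difference of -0.11 ± 0.14 (limma, adjusted p = 0.64), and the difference between the diet effects was 0.69 ± 0.20 (95% interval 0.27 to 1.11; adjusted p = 0.099). It passed without wild type control 403 (0.81, adjusted p = 0.042). On the control diet the genotype difference was 0.32 ± 0.14 (adjusted p = 0.17), which passed without wild type control 402 (0.45, adjusted p = 0.032).

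Abcg8 read 9.14, 8.98, 9.20, 9.50 and 9.14 in restricted progeroid mice and 8.49, 8.40, 9.08, 8.65 and 8.70 in progeroid controls. It read 8.94, 8.56, 8.59, 8.35 and 8.45 in restricted wild type mice and 8.47, 9.41, 8.29, 8.89 and 8.68 in wild type controls. Restricted progeroid mice lay above all restricted wild type mice, and overlapped with progeroid control 325. The genotype difference was 0.62 ± 0.17, or 1.53-fold (limma, adjusted p = 0.015), and was lost without animal 368 (adjusted p = 0.0505). The diet effect in progeroid mice was 0.53 ± 0.17, or 1.44-fold (adjusted p = 0.048). That call stood at the threshold: it was lost in 4 of 7 alternatives and without any one of 13 of the 20 animals (321, 323, 326, 327, 362, 366, 368, 369, 404, 405, 422, 423 and 425), with adjusted p up to 0.12. In wild type mice the diet effect was -0.17 ± 0.17 (adjusted p = 0.53), and the difference between diet effects 0.70 ± 0.24 (adjusted p = 0.17).

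In 2 groups the animal lowest for the enzymes was the highest for both exporters. Wild type control 402 had the lowest enzyme mean (7.99) and the highest Abcg5 (11.36) and Abcg8 (9.41) of its group, and restricted progeroid animal 368 had the lowest enzyme mean (8.09) with the highest Abcg5 (11.88) and Abcg8 (9.50). Among progeroid controls, animal 325 had the highest Abcg5 (11.45) and Abcg8 (9.08) with an enzyme mean of 8.45, and animal 323, with 9.40, had the lowest of both (10.95 and 8.40), but animal 326, with the lowest enzyme mean (8.43), stood in the middle for both (11.10 and 8.65). The restricted wild type mice did not show this: animal 421 had the highest Abcg5 (10.85) and Abcg8 (8.94) with an enzyme mean of 9.34, the second highest of the group. These animals were singled out after their values were seen.

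**Figure D5:**
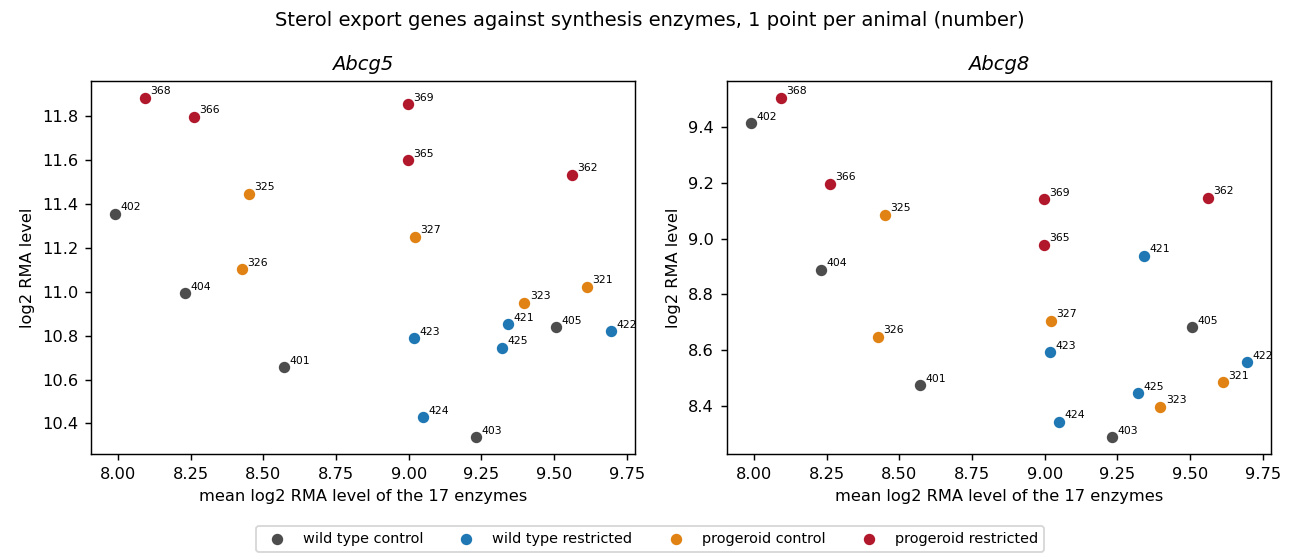
Log2 RMA level of Abcg5 (left) and Abcg8 (right) against the mean log2 level of the 17 enzymes, with 1 numbered point per animal, coloured by group. The 5 restricted progeroid animals lie at the top for Abcg5 (11.53 to 11.88) over an enzyme range of 8.09 to 9.56, and animals 402, 325 and 368, to the left, are the highest of their groups for both exporters.

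Some markers of other liver cells moved with genotype beside these results. Of all genes, 6.7% were higher and 4.32% lower in progeroid mice on the control diet, and 11.8% and 5.44% under restriction. With restriction, 9.92% rose and 12.6% fell in wild type mice, and 6.94% rose and 5.07% fell in progeroid mice. Of 12 Kupffer cell and macrophage markers, 10 were higher in restricted progeroid than restricted wild type mice and 2 in progeroid than wild type controls, and 4 fell with restriction in wild type mice. Their mean level per animal was 7.95 to 8.79 in restricted progeroid mice, 7.16 to 7.74 in restricted wild type mice, 7.91 to 8.60 in progeroid controls and 7.69 to 8.12 in wild type controls. Of 8 measured neutrophil and monocyte markers, 2 were higher in each genotype comparison. Of these 8, 4 had a negative difference on the control diet and 5 under restriction, and 7 or 8 had means under 5 in each group. Of 10 stellate cell and fibroblast markers, 3 were higher in each genotype comparison, and 3 or 4 had means under 5 in each group. Of 9 sinusoidal endothelial markers, 1 was lower on the control diet and 1 higher under restriction in progeroid mice, and 1 fell with restriction in wild type mice. Of the 10 hepatocyte markers, 2 were lower in progeroid mice on each diet and 1 rose with restriction in each genotype. The measured markers of T, B and NK cells (9), cholangiocytes (5) and adipocytes (3) all had group means under 5. The part of these cells in the sterol gene results was not tested.

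Clock genes, which set the daily rhythm of many liver enzymes, moved with diet. Of 16 measured, 9 rose and 4 fell with restriction in progeroid mice, where 6.94% and 5.07% of all genes did. In wild type mice 9 rose and 2 fell, where 9.92% and 12.6% of all genes did. They also varied among control animals: Arntl, the core activator, read 5.09, 5.40, 7.03, 5.69 and 8.17 in wild type controls, and Dbp, a gene peaking in opposite phase, 9.40, 9.33, 8.03, 9.58 and 7.31. The animals with the highest Arntl and lowest Dbp, 403 and 405, had the highest enzyme means of that group (9.23 and 9.51). Progeroid controls 321 and 323, with Arntl at 8.16 and 7.99 and Dbp at 6.50 and 7.43, also had the highest enzyme means of theirs, whereas animal 327 had the lowest Arntl (5.01) and highest Dbp (9.54) with an enzyme mean of 9.02, above animals 325 and 326. These genes and animals were singled out after their values were seen, and the part of the sampling phase in the enzyme values was not tested.

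Genes of fatty acid synthesis, the neighbouring pathway driven by SREBP1, were also counted. Of all genes, 5.44% were lower in progeroid mice under restriction and 4.32% on the control diet, and 9.92% rose with restriction in wild type mice. Of 14 measured, 10 were lower in restricted progeroid than restricted wild type mice, such as Acacb, an acetyl-CoA carboxylase (-2.68 ± 0.50; limma, adjusted p = 0.00081), and Pnpla3, a lipid droplet protein (-3.64 ± 0.69; adjusted p = 0.00094). On the control diet 4 were lower, among them Me1, malic enzyme (-1.07 ± 0.29; adjusted p = 0.021). Restriction raised 3 in wild type mice, including Acaca (1.12 ± 0.30; adjusted p = 0.010), and 0 passed in progeroid mice in limma. The mean of the 14 genes was 11.29 to 11.69 in restricted wild type mice and 9.79 to 10.26 in 4 of the restricted progeroid mice; the fifth, animal 362, stood at 11.22 and was also the highest for the sterol enzymes. Whether the change in 1 list exceeds that in the other was not tested.

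Of 10 measured other regulators of the sterol response, 6 fell and 2 rose with restriction in wild type mice, where 12.6% and 9.92% of all genes did. In progeroid mice 6.94% of all genes rose and 5.07% fell, and between genotypes under restriction 11.8% were higher. Nfe2l1, a factor that senses cholesterol in the endoplasmic reticulum, fell by 0.42 on the log2 scale (limma, adjusted p = 0.00024), and Tmem97, a sterol-responsive membrane protein, rose by 0.74 ± 0.13 (adjusted p = 0.00042). In progeroid mice 1 rose and 1 fell: Mbtps2, a protease that cuts SREBP, rose by 0.27 ± 0.07 (adjusted p = 0.011), and Erlin1, which restrains SREBP in the membrane, fell by 0.60 (adjusted p = 0.00096). Mbtps2 (0.33 ± 0.07; adjusted p = 0.0012) and Erlin2 (0.36 ± 0.09; adjusted p = 0.0087) were the 2 that were higher in progeroid mice under restriction, and 0 passed on the control diet in limma.

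Of 12 measured genes of cholesterol uptake, trafficking and esterification, 3 rose with restriction in each genotype and 0 fell. Of all genes, 9.92% rose in wild type and 6.94% in progeroid mice. In progeroid against wild type mice, 11.8% of all genes were higher and 5.44% lower under restriction, and 6.7% were higher on the control diet. Between genotypes under restriction, 1 was higher in progeroid mice and 2 were lower, among them Osbp, an oxysterol binding protein (-0.33 ± 0.09; limma, adjusted p = 0.016); on the control diet 1 was higher and 0 lower. Npc1, which moves cholesterol out of lysosomes, rose by 0.58 ± 0.12 in progeroid mice (limma, adjusted p = 0.0042) and by 0.44 ± 0.12 in wild type mice (adjusted p = 0.014). Stard5, a sterol carrier, rose by 0.51 ± 0.10 (adjusted p = 0.0028) and 0.39 ± 0.10 (adjusted p = 0.0097). Abcg1, an exporter switched on by LXR like Abcg5, was higher in progeroid mice on both diets. The difference was 0.89 ± 0.15 on the control diet (limma, adjusted p = 0.00035) and 0.73 ± 0.15 under restriction (limma, adjusted p = 0.0014). Abcg1 is also expressed in macrophages, whose markers moved with genotype as given above. The part of LXR or of these cells in its differences was not tested.

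Of 11 genes that turn cholesterol into bile acids, 3 rose and 5 fell with restriction in wild type mice, and 1 rose and 2 fell in progeroid mice. For these and the genes of other mevalonate products below, the shares over all genes were 9.92% rising and 12.6% falling in wild type mice. In progeroid mice they were 6.94% and 5.07%. Akr1d1, a bile acid reductase, rose by 0.91 ± 0.08 in wild type (limma, adjusted p = 5.62e-08) and 0.51 ± 0.08 in progeroid mice (adjusted p = 0.00018), and Cyp7b1, of the alternative route, fell by 2.10 and 1.68 on the log2 scale (adjusted p = 5.43e-07 and 3.06e-05). Amacr, a racemase of side chain shortening, was the only gene of the related lists to pass the test of the difference between diet effects (0.70 ± 0.11; limma, adjusted p = 0.0045). Of all genes, 1.03% were called higher and 0.374% lower in that test. Of 10 measured genes of other mevalonate products, 3 fell with restriction in wild type and 2 in progeroid mice, with Pdss2, for ubiquinone side chains, at -0.46 ± 0.09 and -0.34 ± 0.09 (adjusted p = 0.00072 and 0.014), and Dhdds, for dolichol, at -0.34 ± 0.09 and -0.36 ± 0.09 (adjusted p = 0.0089 and 0.013).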

How the data were processed

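Total RNA of 20 mouse livers was hybridised to Affymetrix arrays, 1 per animal; the sample labels gave the groups. The authors deposited log2 values from RMA, as the processing notes name it; its version is not given in the sources used here. The method forces 1 distribution on all arrays, so any overall shift is lost. The number of arrays limits the precision. Of 45141 probe sets, 104 controls, 551 with several symbols and 15588 without one were not used. For each gene the probe set of highest mean was kept, dim ones included. Using limma 3.58.1 (R 4.3.3; lmFit, eBayes, two-sided), 4 group means were estimated from all arrays with 16 residual degrees of freedom, and 5 comparisons were adjusted by Benjamini-Hochberg; they share groups and are not independent. The script was tested on simulated data. Alternatives were the mean of all probe sets, no suffixed probe sets, no dim genes, centred arrays, a trend and robust eBayes, only the groups compared, and a Gapdh 3' minus 5' covariate. Values of every animal are given for called members, sensors and exporters, others by range; related lists by counts and at most the 2 genes of smallest adjusted p per comparison. Members and lists were chosen with earlier results of these data known.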

Additional observations from a re-analysis of the deposited data

Results flagged for a closer look

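Of 96 sets of 5 animals (24 genes in 4 groups), 5 held an animal whose gap to the nearest other exceeded 0.71 of the range, and chance flags about 1 in 20 such sets. Among progeroid controls, Hmgcs1 was highest in animal 321 at 6.65 (next 4.10), Tm7sf2 was highest in animal 323 at 11.15 (next 10.69), and Insig2 was lowest in animal 327 at 11.16 (next 11.98). Stard4 was lowest in wild type control 402 at 9.56 (next 9.99), and Abcg5 was lowest in restricted wild type animal 424 at 10.43 (next 10.74). Without animal 327, the fall of Insig2 with restriction in progeroid mice passed (-0.66; limma, adjusted p = 0.027).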

How the results depend on the processing

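No difference of a member changed sign while called under the 7 alternatives or without any animal. The count of members lower in progeroid controls went from 1 to 0 with only the groups of the comparison or the Gapdh covariate. Under restriction the lower members went from 1 to 9 with arrays centred on their medians, 3 with only both groups and 0 with the trend and robust fit. Of all genes, 4.96% were lower there with only both groups and 5.16% with the trend and robust fit. Centring moved the median of all genes to -0.12 and -0.17 in the genotype comparisons and called 38.1% of all genes lower under restriction, so 9 of 24 is near that background; calls that were higher fell from 60.8% to 21.4% on the control diet, from 68.5% to 15.1% under restriction, from 57.8% to 45.3% for diet in progeroid mice and from 73.3% to 56.1% for the difference of diet effects, while for diet in wild type mice they rose from 44.1% to 53.3%. Enzyme signs under centring were 10 positive and 7 negative for genotype on the control diet, 1 and 16 under restriction, 3 and 14 for diet in progeroid mice, 16 and 1 in wild type mice and 1 and 16 for the difference. Members rising with diet in progeroid mice went from 2 to 1 with the mean of all probe sets, without suffixed probe sets, with centring and with the trend and robust fit, and those falling from 0 to 1 (Sc5d) with the mean of all probe sets. In wild type mice those rising went from 2 to 1 with the trend and robust fit or the Gapdh covariate and to 3 (Srebf2 added) with the mean of all probe sets, and those falling from 0 to 1 with the mean of all probe sets (Insig2), without dim genes (Tm7sf2) and with only both groups (Scap). The cause of these changes was not tested.

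Without each animal in turn, the members higher ranged from 0 to 1 and lower from 0 to 1 for genotype on the control diet, from 1 to 2 and 0 to 5 under restriction, from 1 to 2 and 0 to 1 for diet in progeroid mice, from 1 to 4 and 0 to 1 in wild type mice, and from 0 to 1 and 0 to 0 for the difference of diet effects. The 0 lower members under restriction arose without animals 366, 368, 369 or 424, and the 5 without animal 362, where 5.88% of all genes were lower. The 4 members rising in wild type mice arose without animal 405, where 1604 of 17097 genes rose. The median over the 17 enzymes ranged from -0.61 (without 362) to -0.26 (without 368) for genotype under restriction. For diet in progeroid mice it ranged from -0.45 (without 362) to -0.09 (without 368). In wild type mice it ranged from 0.50 (without 402) to 0.80 (without 405). No paired analysis was possible because the animal numbers are not shared between groups. RMA values near the lower end of the scale, as for Hmgcs1, understate folds.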
